A study of Mus musculus with 4 samples.

Results

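Sema4a, Sema4d, Nrp1, Plxdc1 and Plxdc2, a set of 5 semaphorin, neuropilin and plexin-domain genes, were described in RNA sequencing of sorted lung T helper 2 (Th2) cells. The genes were taken by symbol from a table of 11883 genes, and all 5 had a row. They were picked with the comparison of the genotypes in view, so their differences between genotypes are given as description and no test of them is offered here. The cells were live CD4+ cells carrying T1/ST2, the receptor for interleukin-33, sorted from digested lungs of C57BL/6 mice under chronic treatment with papain, a protease that provokes allergic airway inflammation. The Klrg1Cre group had the genotype Klrg1Cre Gata3(fl/fl), in which a Cre recombinase named for Klrg1 can cut floxed Gata3. The control group had the genotype Gata3(fl/fl), with the floxed gene and no Cre. Each group had 2 samples, both groups received papain, and the labels give no age, no sex and no statement that the samples came from separate mice, so p-values measure the spread between samples, which may be technical. No group carried Klrg1Cre without floxed Gata3, so effects of Gata3 deletion, of missing cells and of the Cre allele cannot be told apart.

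Semaphorins are secreted or membrane-bound signalling proteins, first known from axon guidance, that bind plexin receptors. Bound plexins act on small GTPases and so on the cytoskeleton and adhesion. In immunity, Sema4a is a membrane semaphorin of dendritic cells and T cells with roles in T cell costimulation, and Sema4d, also known as CD100, is abundant on resting T cells and can be shed by proteases. Nrp1 encodes neuropilin-1, a co-receptor of secreted semaphorins and of vascular endothelial growth factor that also marks many thymus-derived regulatory T cells in mice. Plxdc1 and Plxdc2 encode membrane proteins with a domain resembling one of plexins. They are not plexins, are best known from blood vessels of tumours, and bind the secreted protein PEDF, the product of Serpinf1.

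The start regions of both semaphorins are shown because Gata3, the floxed gene, encodes a factor that binds GATA sites. The 250 bases before each RefSeq start site (build GRCm38.p6) were searched on both strands for the GATA forms, which were AGATAA with its variant AGATAG, and TGATAA with its variant TGATAG, for the STAT form TTCNNNGAA, for the T-box form AGGTGTGA and for the forkhead form GTAAACA. Start sites were listed for 3 of the 5 genes, with 4 for Sema4a, 3 for Sema4d and 1 for Nrp1. Among all 32851 such windows, 26.5% held a GATA form, 7.02% the STAT form, 1.12% the T-box form and 3.17% the forkhead form. The windows of Sema4a and Nrp1 held none of these letters, and the third start site of Sema4d held 1 GATA form, TGATAG, beginning 67 bases before the start. A match is a description of letters, not of binding. The windows are at chr3:88461183-88461432 (minus strand) for the first Sema4a site and at chr13:51739447-51739696 (minus strand) for the third Sema4d site, written 5′ to 3′ with the GATA form in capitals.
Sema4a: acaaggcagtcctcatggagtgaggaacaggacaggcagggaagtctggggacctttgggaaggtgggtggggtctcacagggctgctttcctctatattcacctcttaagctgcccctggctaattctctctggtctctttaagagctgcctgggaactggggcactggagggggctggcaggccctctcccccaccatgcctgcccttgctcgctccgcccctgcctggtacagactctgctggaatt
Sema4d: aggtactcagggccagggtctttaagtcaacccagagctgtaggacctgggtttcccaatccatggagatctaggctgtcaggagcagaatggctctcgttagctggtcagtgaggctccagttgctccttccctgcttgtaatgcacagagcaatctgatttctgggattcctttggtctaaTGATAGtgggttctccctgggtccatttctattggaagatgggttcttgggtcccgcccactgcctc

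The deposited values are means of each genotype in CPM, the reads of a gene scaled to a fixed library total. A mean was split into its single libraries where 1 pair of whole read numbers fitted it better than any other and few chance matches were expected. This held for 4 of the 5 genes and not for Sema4d. The library totals worked out this way were 26019065 and 14564426 reads for Klrg1Cre and 33379572 and 31961572 reads for control. The split does not show which library is which sample, and the libraries of a genotype are told apart by size. The ribosomal RNA precursor Rn45s held 67.1% of Klrg1Cre reads and 51.4% of control reads, and the other listed genes together held 18.2% of Klrg1Cre reads and 17.8% of control reads. Over all genes the log2 ratio had a median of 0.01. Ratios and p-values below are those of the authors' deposited table unless limma, a linear model run here on the single libraries, is named. The floxed gene, Gata3, averaged 293.9 CPM in Klrg1Cre and 221.4 CPM in control; the counts cover the whole gene, so they do not check the deletion. Klrg1 averaged 4.19 CPM in Klrg1Cre and 48.4 CPM in control. Markers of T cells were present with 9 of 10 measured and summed to 1286 CPM in Klrg1Cre and 1285 CPM in control.

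Sema4a, the costimulatory semaphorin, was the gene of the set with the smallest p, and Plxdc2 the one with the largest ratio. Plxdc1 also had a higher mean in Klrg1Cre, Nrp1 differed little between genotypes and Sema4d was slightly lower in Klrg1Cre. Adjusted over all genes, the authors' p was below 0.05 for 1 of the 5 genes, Sema4a, with a higher mean in Klrg1Cre, against 0.0252% of all genes called in that direction. Their unadjusted p was below 0.05 for 3 of 5, all higher in Klrg1Cre, against 3.72% of all genes. Of the 4 genes with single-library values, 3 had both Klrg1Cre libraries above both control libraries, which 19.2% of 9732 such genes showed. The genes were chosen from this comparison, so nothing is read from these shares. In bulk RNA, a change in RNA per cell and a change in the share of cells that express a gene cannot be told apart.

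**Figure D1:**
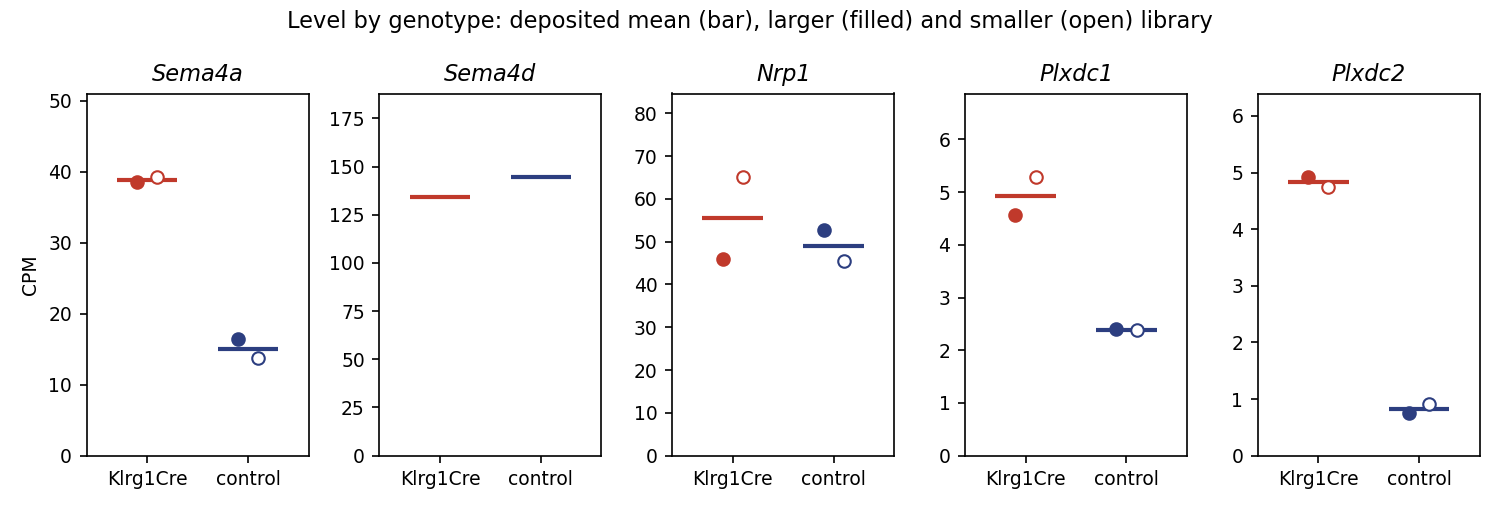
Levels of the 5 genes in CPM (vertical axes start at 0 and differ between panels) in Klrg1Cre and control. Bars mark deposited genotype means, filled points the larger and open points the smaller library. For Sema4a, Plxdc1 and Plxdc2 both Klrg1Cre points lie above both control points, for Nrp1 the points overlap, and Sema4d has means only.

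Sema4a stood at 38.5 CPM in the larger and 39.3 CPM in the smaller Klrg1Cre library, against 16.4 CPM in the larger and 13.8 CPM in the smaller control library. These are 1003 and 572 reads in Klrg1Cre and 547 and 441 reads in control. Both Klrg1Cre libraries were high and close to each other, and the genotypes did not overlap. The authors' deposited table has means of 38.9 CPM for Klrg1Cre and 15.1 CPM for control, a 2.58-fold ratio (log2 1.37), with an adjusted p of 0.0180. Sema4a ranked 6 of 11883 by the authors' p. The pooled SD of its log2 CPM between libraries of a genotype was 0.12.

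Sema4d, the most abundant gene of the set, averaged 134.5 CPM in Klrg1Cre and 144.6 CPM in control, 1.07-fold lower (log2 ratio -0.10). The authors' deposited table gives it a p of 0.475 and an adjusted p of 0.902. Single libraries could not be separated for it, so its spread is unknown; counting error alone gives a 95% interval reaching 0.05 to either side of the log2 ratio. Sema4a and Sema4d thus differed in direction of their means, and a test of the difference between their ratios was not run.

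Nrp1 stood at 46.0 CPM in the larger and 65.1 CPM in the smaller Klrg1Cre library, against 52.6 CPM in the larger and 45.4 CPM in the smaller control library. The smaller Klrg1Cre library was high and the other 3 lay close together, so the genotypes overlapped. Means in the authors' deposited table were 55.6 CPM for Klrg1Cre and 49.0 CPM for control, a 1.13-fold ratio (log2 0.18) with a p of 0.384 and an adjusted p of 0.867. The direction rests on the smaller Klrg1Cre library: without it the log2 ratio is -0.09. The split of the control mean is the least certain of the set, with 0.00682 splits expected by chance.

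Plxdc1 stood at 4.57 CPM in the larger and 5.29 CPM in the smaller Klrg1Cre library, against 2.40 CPM in the larger and 2.38 CPM in the smaller control library. Both Klrg1Cre libraries were higher and the genotypes did not overlap. These values rest on 119 and 77 reads in Klrg1Cre and 80 and 76 reads in control. Means in the authors' deposited table were 4.93 CPM for Klrg1Cre and 2.39 CPM for control, a 2.07-fold ratio (log2 1.05) with a p of 0.00559 and an adjusted p of 0.437. Plxdc1 did not pass adjustment over all genes.

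Plxdc2 stood at 4.92 CPM in the larger and 4.74 CPM in the smaller Klrg1Cre library, against 0.749 CPM in the larger and 0.907 CPM in the smaller control library. Klrg1Cre libraries nearly coincided, control libraries were low, and the genotypes did not overlap. The control values rest on 25 and 29 reads, and those of Klrg1Cre on 128 and 69 reads. Means in the authors' deposited table were 4.83 CPM for Klrg1Cre and 0.828 CPM for control, a 5.83-fold ratio (log2 2.54) with a p of 6.40e-05. The adjusted p there was 0.0701, above 0.05.

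Divided by exon length, levels can be compared between the 5 genes. In CPM per kilobase of exon, Sema4d stood at 17.5 in Klrg1Cre and 18.8 in control, and Sema4a at 7.20 in Klrg1Cre and 2.79 in control. Nrp1 stood at 5.68 in Klrg1Cre and 5.01 in control, Plxdc1 at 1.02 in Klrg1Cre and 0.494 in control, and Plxdc2 at 0.695 in Klrg1Cre and 0.119 in control. Sema4d was thus highest in both genotypes and Plxdc2 lowest, whereas Sema4a stood above Nrp1 in Klrg1Cre and below it in control. Single libraries of neighbours in this order did not overlap within a genotype for the 4 genes that have them; for Sema4d the spread is unknown. In RefSeq, no other gene of the table overlaps any of the 5 genes.

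Patterns most like those of the 5 genes were sought by distance of centred log2(CPM + 1) over the 4 libraries, among 5213 or 5214 genes that averaged 5 CPM or more. Nearest to Sema4a were Nmur1, encoding the neuromedin U receptor of ILC2, Tbc1d2 and the integrin gene Itgb1, at distances of 0.14, 0.28 and 0.33. Nmur1 stood at 7.76 and 7.69 CPM in the Klrg1Cre libraries, against 2.46 and 2.35 CPM in the control libraries, with the larger library first. Nmur1 was nearest to Plxdc2 too (0.34), before Nkg7 (0.39) and Sema4a itself (0.44). The added 1 CPM brings the log2 ratio of Plxdc2 from 2.54 to 1.67, so its nearness to these genes depends in part on that addition. Nearest to Plxdc1 were F2r, encoding a thrombin receptor (0.10), the type 2 cytokine gene Il13 (0.12) and Elac2 (0.12). Il13 stood at 11.3 and 13.5 CPM in the Klrg1Cre libraries, against 6.68 and 5.98 CPM in the control libraries. Nearest to Nrp1 were Isyna1 (0.04), Arhgap18 (0.06) and Pold1 (0.07). For Sema4d only the 2 means could be compared, among 1085 genes, and Cuedc2, Cd6 and Pgs1 were nearest.

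Other genes of the pathway were counted by direction and by p, beside all genes. Of 80 listed genes besides the 5, counting other semaphorins, plexins, neuropilin-2, further receptors and ligands, signalling partners and proteases, 56 had a row, of which 32 had a higher and 24 a lower mean in Klrg1Cre. None of them passed the authors' adjusted p; at an unadjusted p below 0.05, 3 were higher and 1 lower, where 3.72% and 3.37% of all genes were. limma could use 33 of them and had 3 higher and 0 lower at an unadjusted p below 0.05, where 4.15% and 3.71% of its genes were, and 1 higher, Itgb1, at an adjusted p below 0.05, where 0.0983% of its genes were. The median log2 ratio of the 56 was 0.07, beside 0.01 for all genes. Of 47 with single-library values, both Klrg1Cre libraries lay above both control libraries for 10 and below for 5, where 19.2% and 18.2% of all such genes did.

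**Figure D2:**
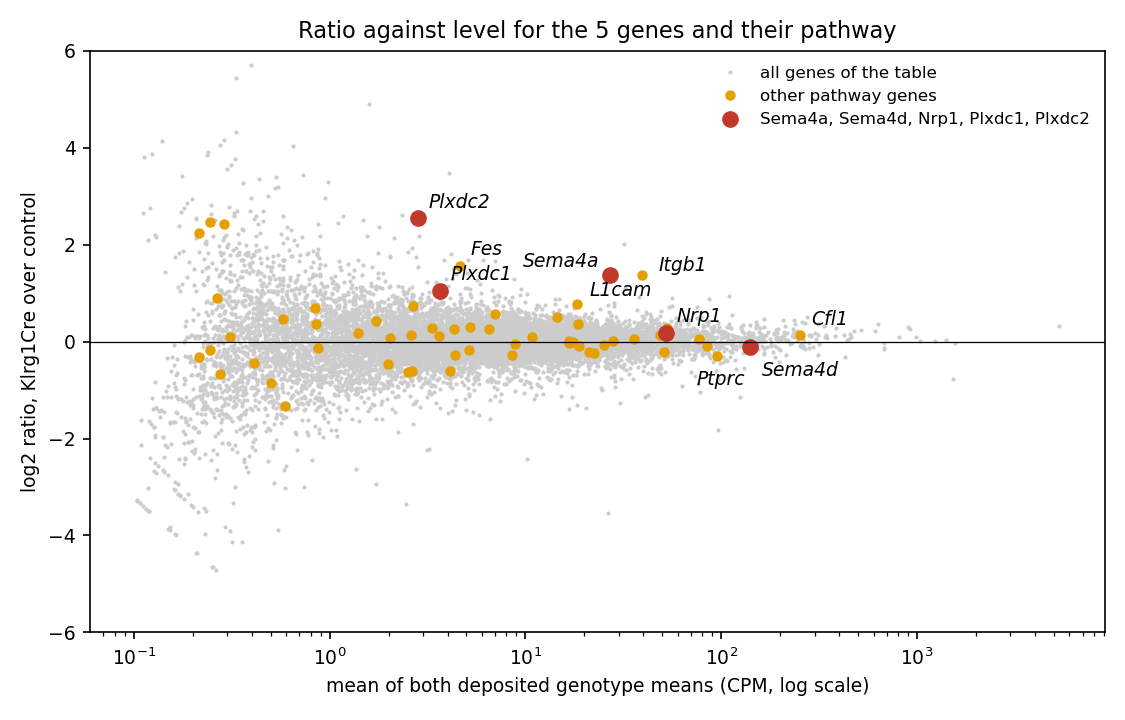
The log2 ratio of Klrg1Cre over control (vertical axis) against the mean of both deposited genotype means in CPM (horizontal log axis), for all genes (grey), other pathway genes (orange) and the 5 genes (red). Genes beyond a log2 ratio of 6 in either direction are outside the axis. Plxdc2 lies at 2.54, Sema4a at 1.37 and Plxdc1 at 1.05, and Nrp1 at 0.18 and Sema4d at -0.10 lie near 0.

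Among ligands, 6 semaphorins besides Sema4a and Sema4d had a row, 3 with a higher and 3 with a lower mean in Klrg1Cre and none at p below 0.05. The most abundant of them was Sema4b, at 20.6 CPM in Klrg1Cre and 24.3 CPM in control, with a p of 0.185 in the authors' deposited table. Sema4f averaged 3.27 CPM in Klrg1Cre and 4.95 CPM in control, without overlap of the libraries and with a p of 0.0834 in the authors' deposited table. Sema7a, a membrane-anchored semaphorin that binds integrins, was low at 0.338 CPM in Klrg1Cre and 0.843 CPM in control, with a p of 0.0875 in the authors' deposited table. The PEDF gene Serpinf1, whose product Plxdc1 and Plxdc2 bind, was near the limit of detection at 0.487 CPM in Klrg1Cre and 0.0906 CPM in control.

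Among receptors, 7 of 9 plexins had a row, 4 with a higher and 3 with a lower mean in Klrg1Cre and none at p below 0.05. Plxnd1 averaged 17.0 CPM in Klrg1Cre and 11.9 CPM in control, with a p of 0.0591 in the authors' deposited table. Its Klrg1Cre libraries, at 20.5 and 13.5 CPM, lay above its control libraries, at 10.7 and 13.0 CPM. Plxnb2, a receptor of Sema4 proteins, averaged 8.36 CPM in Klrg1Cre and 5.60 CPM in control, also without overlap, and the authors' deposited table gives a p of 0.0604. Plxnb1, the high-affinity receptor of Sema4d, was at 0.356 CPM in Klrg1Cre and 0.645 CPM in control, and Cd72, a Sema4d receptor on lymphocytes, at 3.64 CPM in Klrg1Cre and 3.01 CPM in control. Plxna1, a partner of Nrp1, averaged 18.1 CPM in Klrg1Cre and 19.4 CPM in control. Nrp2 averaged 5.75 CPM in Klrg1Cre and 4.65 CPM in control, with libraries that overlapped.

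**Figure D3:**
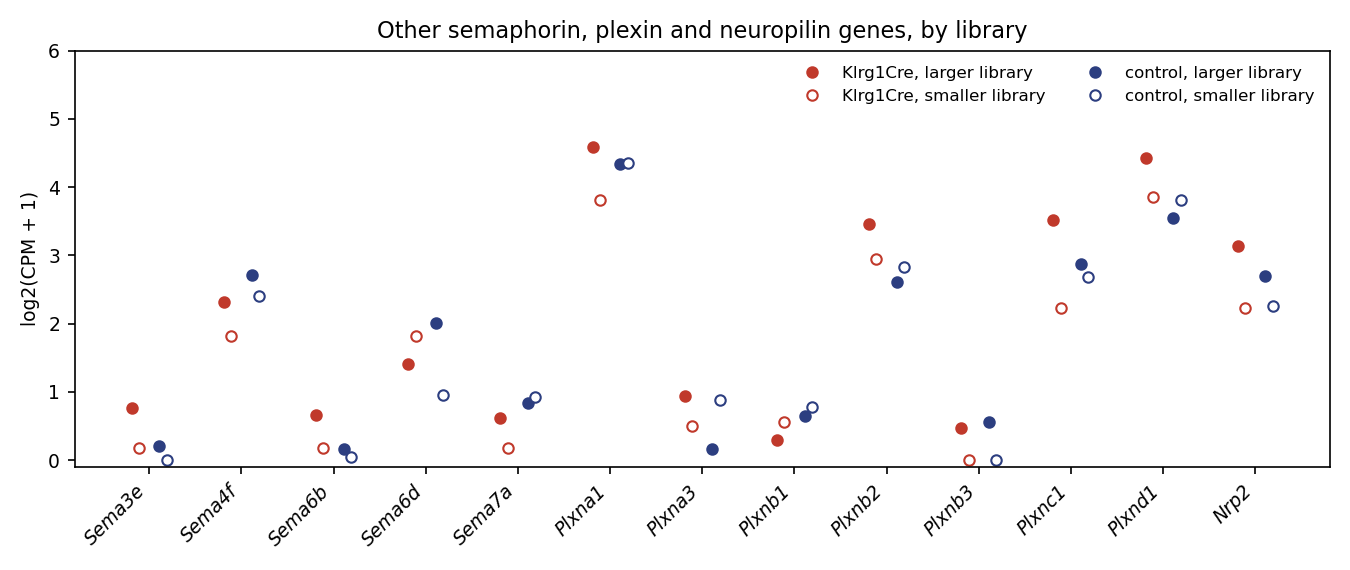
Other semaphorin, plexin and neuropilin genes with single-library values, as log2(CPM + 1) in the larger (filled) and smaller (open) library of Klrg1Cre (red) and control (blue). Genotypes overlap for Sema3e, Sema6d, Plxna1, Plxna3, Plxnb3, Plxnc1 and Nrp2, and no gene shown had an authors' p below 0.05.

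Of 12 further receptors and co-receptors, 6 had a row, 4 with a higher and 2 with a lower mean in Klrg1Cre, and Itgb1 and L1cam had a p below 0.05. Itgb1, encoding the integrin beta-1 chain that Sema7a engages, stood at 51.2 and 62.4 CPM in the Klrg1Cre libraries and at 27.0 and 17.1 CPM in the control libraries, larger library first. The authors' deposited table gives a log2 ratio of 1.37, a p of 9.93e-05 and an adjusted p of 0.0701. L1cam, an adhesion molecule that acts as a co-receptor with Nrp1, stood at 21.9 and 24.3 CPM in the Klrg1Cre libraries, against 18.2 and 8.85 CPM in the control libraries. Its log2 ratio was 0.78, with a p of 0.0151 in the authors' deposited table. The L1cam difference was smallest without the smaller control library, where limma gave a log2 ratio of 0.33. Without the larger control library limma gave 1.29. It gave 0.88 without the larger and 0.74 without the smaller Klrg1Cre library. Havcr2 averaged 7.72 CPM in Klrg1Cre and 9.29 CPM in control.

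Of 25 measured signalling partners, 14 had a higher and 11 a lower mean in Klrg1Cre. Only Fes had a p below 0.05. Fes encodes a tyrosine kinase that acts downstream of plexins, and stood at 8.53 and 5.36 CPM in the Klrg1Cre libraries, against 2.10 and 2.60 CPM in the control libraries. Its log2 ratio was 1.56, with a p of 0.000892 in the authors' deposited table. The most abundant partner, Cfl1, averaged 265.2 CPM in Klrg1Cre and 242.2 CPM in control. Rhoa followed with 82.05 CPM in Klrg1Cre and 87.1 CPM in control. Mical1, next in abundance, averaged 58.2 CPM in Klrg1Cre and 48.1 CPM in control, with a p of 0.110 in the authors' deposited table. Of 6 proteases and partners that handle semaphorins at the membrane, Ptprc, encoding CD45, averaged 85.2 CPM in Klrg1Cre and 105.01 CPM in control, with a log2 ratio of -0.30 and a p of 0.0347 in the authors' deposited table. Adam10 averaged 19.5 CPM in Klrg1Cre and 22.5 CPM in control, and Adam17, another sheddase, 17.5 CPM in both genotypes. In limma with all libraries, 3 of the 33 usable pathway genes were higher and 0 lower at an unadjusted p below 0.05. Of all its genes, 4.15% were higher and 3.71% lower. A fit with a library left out has a single library in that genotype, so counts from such fits are not given.

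Nrp1 was set beside the regulatory T cell list, to which it belongs. Of the 16 other genes, all with a row, 15 had a lower mean in Klrg1Cre, with 10 at p below 0.05, where 3.37% of all genes were lower. Of these 10, Itgae was also at an adjusted p below 0.05, which 0.0337% of all genes were with a lower mean. Only Il10 had a higher mean. The 16 genes summed to 728.2 CPM in Klrg1Cre and 1094 CPM in control, and their median log2 ratio was -0.74. Foxp3, which defines the lineage, averaged 50.6 CPM in Klrg1Cre and 104.6 CPM in control. None of the 13 with single-library values had both Klrg1Cre libraries above both control libraries and 10 had both below, where 19.2% and 18.2% of all such genes did; for Nrp1 the genotypes overlapped. Within Klrg1Cre, 13 of 14 other list genes were higher in the smaller library, as was Nrp1; 46.0% of all genes were. Within control, 10 of 13 other list genes were higher in the smaller library, with 48.0% of all genes, but Nrp1 was higher in the larger. The part of regulatory T cells in the Nrp1 level was not tested.

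**Figure D4:**
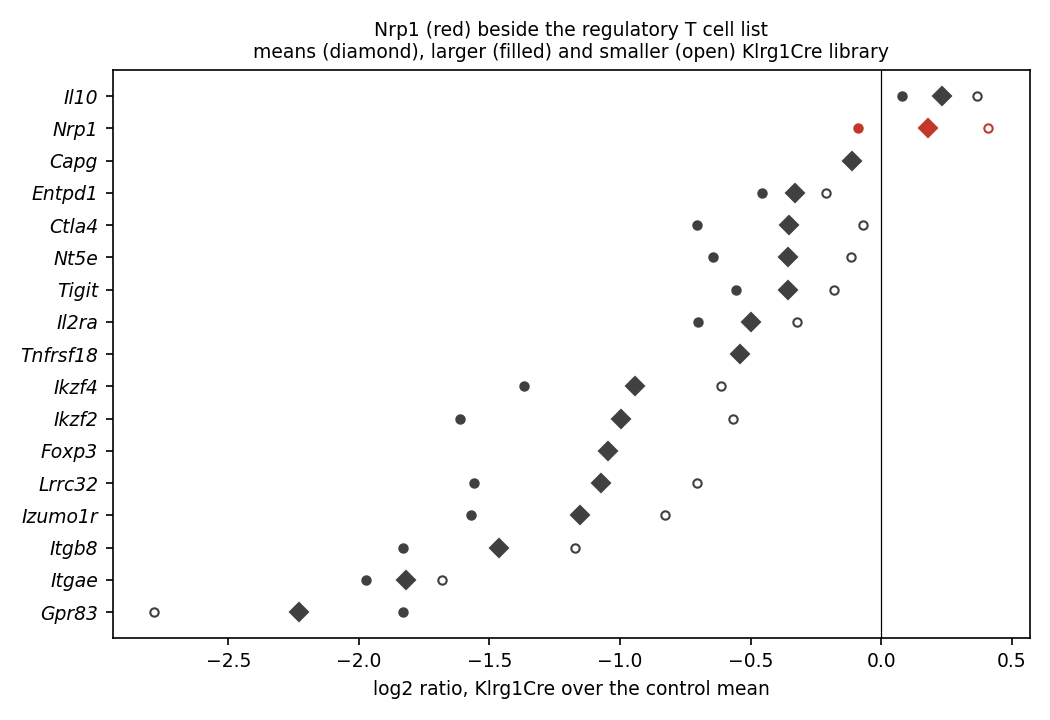
Log2 ratio of Klrg1Cre over the control mean for Nrp1 (red) and the 16 other genes of the regulatory T cell list (dark), for the Klrg1Cre mean (diamond) and the larger (filled) and smaller (open) Klrg1Cre library. Nrp1 lies at 0.18, with its 2 libraries on either side of 0, and Itgae and Gpr83 lie lowest.

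Other cell types of the lung that can express these genes were read from marker lists. Dendritic cell markers, of interest for Sema4a, had 6 of 10 measured and summed to 104.8 CPM in Klrg1Cre and 91.2 CPM in control. Of these 6, 5 had a higher and 1 a lower mean in Klrg1Cre. Only H2-Ab1 was higher at an authors' p below 0.05, where 3.72% of all genes were. H2-Ab1 averaged 50.7 CPM in Klrg1Cre and 38.9 CPM in control. Cd74, nearly as abundant, averaged 43.4 CPM in both genotypes. Macrophage and monocyte markers, all 12 measured, summed to 1656 CPM in Klrg1Cre and 2419 CPM in control. Most of that sum was Chil3, at 1124 CPM in Klrg1Cre and 1932 CPM in control. Of the 12, 6 had a higher and 6 a lower mean in Klrg1Cre, with a median log2 ratio of -0.01. Marco had 0 reads in both control libraries and only 14 and 1 reads in the Klrg1Cre libraries, larger library first. Endothelial markers, of interest for Plxdc1 and Nrp1, had 3 of 8 measured and summed to 23.6 CPM in Klrg1Cre and 18.3 CPM in control. Most of that sum was Pecam1, at 17.7 CPM in Klrg1Cre and 12.1 CPM in control. Vwf averaged 5.66 CPM in Klrg1Cre and 5.89 CPM in control, and Flt1 0.319 CPM in Klrg1Cre and 0.300 CPM in control. Fibroblast and pericyte markers had 2 of 8 measured and summed to 1.38 CPM in Klrg1Cre and 0.530 CPM in control. Both of them, Col1a1 and Pdgfrb, averaged below 1 CPM and had a higher mean in Klrg1Cre. Neither had an authors' p below 0.05. B cell markers summed to 5.57 CPM in Klrg1Cre and 6.78 CPM in control. Ms4a1 had 0 reads in both Klrg1Cre libraries and only 1 and 12 reads in the control libraries, larger library first. ILC2 markers summed to 247.8 CPM in Klrg1Cre and 353.0 CPM in control, with 3 higher and 3 lower at p below 0.05, where 3.72% and 3.37% of all genes were. The 3 lower were Arg1, at 53.9 CPM in Klrg1Cre and 98.5 CPM in control, Klrg1, at 4.19 and 48.4 CPM, and Il2ra. Arg1 and Klrg1 had the largest differences in CPM and make up most of the difference between the sums. The 3 higher were Nmur1, Kit and Calca. The part of these cells in the levels of the 5 genes was not tested.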

How the data were processed

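RNA of 4 samples, 2 per genotype, was sequenced. The submitters' processing notes name STAR, Partek and mm9, without versions. The authors deposited genotype means in CPM with an offset of 0.0001 CPM, headed ILC2 deficient and WT; these were taken as Klrg1Cre and control, a link the labels do not state. The model behind the deposited p-values is not given in the sources used here; the adjusted ones equal a Benjamini-Hochberg adjustment over all 11883 genes. The deposited ratio is the quotient of the means, the deposited signed fold change follows it, and the deposited signal (total counts) is 2 times their sum.

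No counts per sample were given, so the planned edgeR test did not apply. Whole reads per library were recovered by searching, within 256 rounding steps of 32-bit numbers, for pairs that give each mean. The pair with the smallest miss was kept where no other pair tied with it and under 0.01 matches were expected by chance. This rule was chosen after seeing the data. It split 84.0% of genes in Klrg1Cre, 83.1% in control and 81.9% in both. On simulated data with fractional reads, 0.0772% of Klrg1Cre and 0.1995% of control means were wrongly split. As an alternative, limma 3.58.1 (R 4.3.3, trended variance, log2(CPM + 1)) was fitted to 8141 recovered genes averaging 1 CPM or more. A row named Nrp, another gene, was not used. Exon lengths came from the GENCODE mouse annotation and start regions from RefSeq (GRCm38.p6), a build other than mm9. Of the lists, T helper 2 markers had 8 of 9 measured and summed to 498.9 CPM in Klrg1Cre and 448.1 CPM in control. Of these 8, 4 had a higher and 4 a lower mean in Klrg1Cre. At an authors' p below 0.05, 3 were higher (Gata3, Il5 and Il13) and 0 lower, where 3.72% and 3.37% of all genes were. Epithelial markers summed to 16.0 CPM in both genotypes. CD8 T and NK cell markers summed to 21.6 CPM in Klrg1Cre and 19.0 CPM in control. Genes named besides the 5 include list genes with p below 0.05, abundant genes of the lists and the 3 nearest in pattern. Not every list gene with p below 0.05 and not every most abundant gene is named. Other genes were chosen after their values were seen. The genes and lists were chosen with earlier results of these data known.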

Additional observations from a re-analysis of the deposited data

How the results depend on the processing

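Log2 ratios of the 5 genes kept their sign under pseudocounts, rescaling without Rn45s (a shift of -0.03) and, for the 4 genes other than Sema4d, limma. A pseudocount of 1 CPM gave 0.81 for Plxdc1 and 1.67 for Plxdc2, as did limma (0.81 and 1.67). A pseudocount of 5 CPM gave 1.13 for Sema4a, 0.43 for Plxdc1 and 0.75 for Plxdc2. Leaving out 1 library at a time gave 1.25 to 1.50 for Sema4a, 0.94 to 1.15 for Plxdc1, 2.41 to 2.69 for Plxdc2 and -0.09 to 0.41 for Nrp1, which turned without the smaller Klrg1Cre library. Pathway genes higher at p below 0.05 numbered 2 to 7 and lower ones 0 to 4 with 1 library left out in limma; with all libraries limma had 0 lower, since Ptprc, whose control mean was not split, could not enter it. In limma fits with 1 library left out, the genotype with a single library was assumed to vary like the other. Only log2 ratios are given from those fits. The median over recovered pathway genes was 0.08, and -0.03 to 0.19 with 1 library left out. No paired analysis was possible because neither the deposited columns nor the recovered libraries carry a replicate number. Depth limits Plxdc2 most, at 25 and 29 control reads.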
